A study of Mus musculus with 19 samples.

Results

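Mir219a-2 is the mouse gene for 1 of the hairpin precursors of the microRNA miR-219a, and its level was followed in the forebrain of EphA4 knockout and wild-type mice with and without sleep deprivation. It was represented by the 1 probe set, of 8751 in the deposited values, whose only platform gene symbol was Mir219a-2. The gene was chosen from these data for its lower level after sleep deprivation averaged over both genotypes, so that difference and its parts within each genotype are given as a description and were not tested. Genes with 1 symbol numbered 1121 in all. No other probe set listed Mir219a-2 among several symbols, and no other row repeated its values.

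The samples were total RNA from the forebrain of EphA4 knockout mice and of wild-type littermates, on 19 Affymetrix Mouse Gene 2.0 ST arrays. All were of the strain given as Mixed BL6/10 and were kept on a cycle of 12 h light to 12 h dark. The groups were 4 wild-type undisturbed controls, 6 wild-type mice deprived of sleep for 6 h, 4 EphA4 knockout undisturbed controls and 5 EphA4 knockout mice deprived of sleep for 6 h. The labels give no age, no sex, no construct for the knockout and no part of the forebrain, and do not say whether each array held a separate animal. The p-values below therefore rest on the spread from array to array, part of which may be technical. EphA4 is a receptor tyrosine kinase for ephrins, and the study asked how the brain's response to lost sleep depends on it.

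A microRNA gene is transcribed as a long primary transcript, from which the nuclear enzyme Drosha cuts a hairpin and the cytoplasmic enzyme Dicer a short mature strand. The mature strand guides Argonaute proteins to messenger RNAs that pair with its seed, the bases near its 5′ end. In the brain, miR-219 is known as a microRNA of oligodendrocytes, where it promotes differentiation by holding down genes of the precursor state such as Pdgfra, Sox6 and Hes5. What stage of this path the probes read, primary transcript, hairpin or mature strand, is not given in the sources used here.

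The hairpin is shown because the mature strand that RefSeq lists for this gene takes up only 21 of its 97 bases. RefSeq's table lists no strand from the other arm of this hairpin, which does not show that none is made. The hairpin is printed 5′ to 3′ from RefSeq (build GRCm38.p6, chr2:29845631-29845727, minus strand), with the listed mature strand in capitals. In the mature sequence the seed, bases 2 to 8, is in capitals.
Mir219a-2 hairpin: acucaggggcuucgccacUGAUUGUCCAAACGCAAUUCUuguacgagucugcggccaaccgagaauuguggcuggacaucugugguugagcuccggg
mmu-miR-219a-5p: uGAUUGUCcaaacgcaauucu

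The same mature strand is also made from a second gene, Mir219a-1 (GRCm38.p6, chr17:34024983-34025092, minus strand), whose hairpin is shown because a level of Mir219a-2 is therefore not the level of miR-219a-5p. The capitals mark its mature strands.
Mir219a-1 hairpin: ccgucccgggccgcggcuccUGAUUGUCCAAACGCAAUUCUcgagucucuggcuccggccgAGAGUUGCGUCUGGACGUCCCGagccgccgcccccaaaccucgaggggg

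No probe set carried Mir219a-1 as its only symbol. The seed GAUUGUC belonged to 1 of 1679 mature names in the RefSeq table, miR-219a-5p itself, from these 2 genes. Of the 43 microRNA precursors measured here under a symbol of their own, 37 had a sequence in that table, and Mir219a-2 was the 1 with this seed.

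On the opposite strand of the Mir219a-2 hairpin RefSeq places a further precursor, Mir219b (GRCm38.p6, chr2:29845647-29845711, plus strand), shown because the same stretch of genome can give transcripts of both strands. Its 65 bases are the exact reverse complement of bases 17 to 81 of the Mir219a-2 hairpin, and its mature strands, in capitals, have other seeds.
Mir219b hairpin: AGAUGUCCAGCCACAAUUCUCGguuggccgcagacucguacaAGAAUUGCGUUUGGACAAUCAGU

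Mir219b was not among the symbols measured here, and the strand that the Mir219a-2 probes match is not given in the sources used here. By RefSeq's annotation the hairpin also lies within the span of 1 other gene, Cercam, which was likewise not measured under its own symbol.

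The level of Mir219a-2, on the log2 scale of the deposited values, was 7.64 on average over the 19 arrays, above that of 82.1% of the probe sets. Among the 43 microRNA precursors it ranked number 7 by level, as a description only, since levels of different probe sets are not on one scale. The 4 wild-type undisturbed arrays, replicates 1 to 4, read 7.93, 8.0, 7.86 and 8.03. These were the highest values of the series, and no array of another group reached them.

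The 6 wild-type sleep-deprived arrays ran from 7.21 through a median of 7.64 to 7.82. Replicates 1, 3, 4, 5 and 6 lay at 7.61 or above, and replicate 2 was the lowest array of all at 7.21. The 4 knockout undisturbed arrays read 7.67, 7.73, 7.69 and 7.78, within the range of the wild-type sleep-deprived arrays. The 5 knockout sleep-deprived arrays read 7.52, 7.29, 7.36, 7.34 and 7.31, below every undisturbed array of either genotype.

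Group means from high to low were 7.95 ± 0.07 (SD, n = 4) in undisturbed wild type, 7.72 ± 0.05 (SD, n = 4) in undisturbed knockout, 7.59 ± 0.20 (SD, n = 6) in sleep-deprived wild type and 7.36 ± 0.09 (SD, n = 5) in sleep-deprived knockout. In that order, the undisturbed knockout and the sleep-deprived wild type overlapped, as did the sleep-deprived wild type and the sleep-deprived knockout. The undisturbed wild type overlapped with no other group. The plot of levels by array shows this order and the spread in each group.

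**Figure D1:**
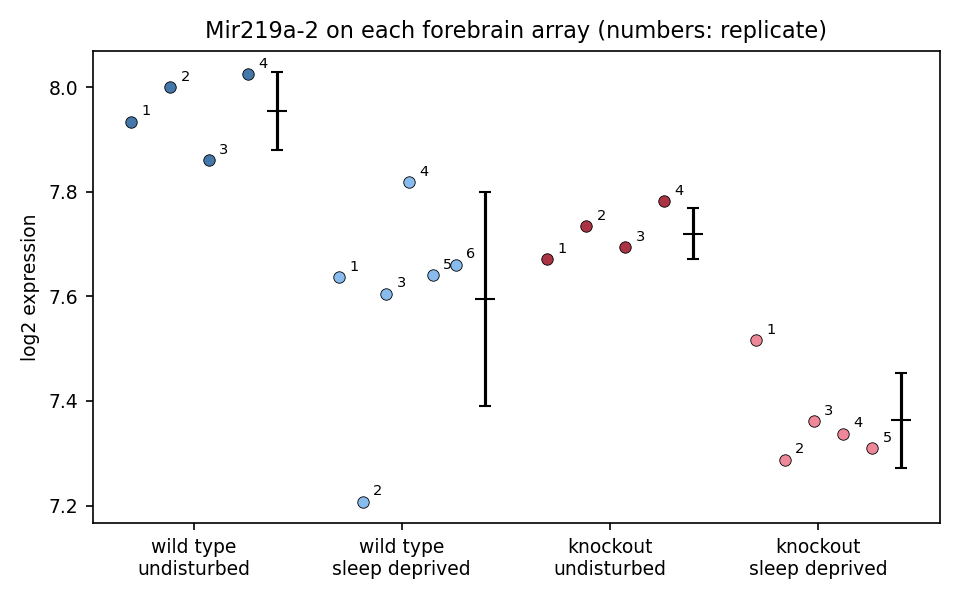
Log2 expression of Mir219a-2 on each of the 19 forebrain arrays by group, with the replicate number beside each point and the mean ± SD as a bar to the right. The 4 undisturbed wild-type arrays lie above all others, and wild-type sleep-deprived replicate 2, at 7.21, lies apart from the other arrays of its group.

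Within wild type the mean was lower after sleep deprivation by a log2 difference of -0.36 ± 0.09 (SE), and within the knockout also by -0.36 ± 0.09 (SE). Averaged over both genotypes the difference was -0.36 ± 0.06 (SE), which on the linear scale is a level 22% lower. Sleep-deprived arrays all lay below the undisturbed arrays of their genotype, in wild type by a narrow margin (7.82 against 7.86) and in the knockout by a wider one (7.52 against 7.67). Such a separation was seen for 0.743% of all probe sets in wild type, for 1.3% in the knockout and for 0.0457% in both. Of all probe sets, 17 had a lower averaged difference. In that comparison limma called 0.263% of all probe sets, and 0.0571% as lower. These values chose the gene, so nothing is read from them.

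The tissue was bulk forebrain, so fewer oligodendrocytes and less Mir219a-2 RNA per cell cannot be told apart. Of 58 marker genes of 9 cell classes, among them 14 of mature oligodendrocytes (such as Mbp), 6 of the oligodendrocyte lineage (such as Olig2 and Sox10) and 5 of its precursors, 0 were measured under a symbol of their own, and 3, all blood markers, were listed only among several symbols. The cell makeup of the samples, and the forebrain label itself, could therefore not be checked from markers, and the part of cell makeup in the Mir219a-2 differences was not tested. No probe set was named Epha4, so the genotype labels were not checked either. Array medians ran from 5.92 to 5.96 in undisturbed wild type, 5.90 to 6.04 in sleep-deprived wild type, 5.93 to 6.04 in undisturbed knockout and 5.94 to 6.07 in sleep-deprived knockout. After median centring of the arrays, Mir219a-2 differed by -0.38 with sleep deprivation averaged over genotypes.

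The interaction asked whether the response of Mir219a-2 to sleep deprivation differed between genotypes. It was 0.00 ± 0.13 on the log2 scale (SE, limma adjusted p = 0.996), with a 95% confidence interval of the difference from -0.27 to 0.27. The interval leaves room for responses that differ between the genotypes in either direction, so equal responses are not shown. The test called 0.0686% of all probe sets.

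The comparison of genotypes does not use the sleep deprivation difference that chose the gene. Earlier results of these data had already shown the averaged genotype difference, so the p-values of Mir219a-2 below are no independent support. In undisturbed mice Mir219a-2 was lower in the knockout by a log2 difference of -0.23 ± 0.10 (SE, 95% confidence interval -0.44 to -0.03), a level 15% lower on the linear scale. All 4 knockout arrays lay below all 4 wild-type arrays (7.78 at most against 7.86 at least), as was seen for 1.5% of all probe sets, and for 3.68% when separation in either direction is counted. Over all probe sets it did not pass (limma adjusted p = 0.87), and limma called 0 probe sets there (0%). At an unadjusted p under 0.05 there were 476 of 8751, where chance alone gives about 1 in 20. An exact two-sided permutation test of the 4 against 4 arrays gave p = 0.0286, the smallest p that this design allows, and p = 0.0571 when adjusted over both genotype comparisons.

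After sleep deprivation the knockout mean was lower by a log2 difference of -0.23 ± 0.08 (SE, 95% confidence interval -0.41 to -0.06), which did not pass over all probe sets (limma adjusted p = 0.18, with 1.68% of probe sets called, 0.137% as lower). An exact two-sided permutation test of 5 against 6 arrays gave p = 0.0606, also after adjustment over both comparisons. All knockout arrays lay below all wild-type arrays for 0.514% of probe sets, and Mir219a-2 was not among them because of 1 array, wild-type sleep-deprived replicate 2. Without it the difference was -0.31 and limma's adjusted p was 0.025, with 0.891% of probe sets called. That array was left out after its value was seen, and as the lowest of its group its removal could only widen the difference, so this value supports no call.

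Averaged over both conditions, the knockout difference was -0.23 ± 0.06 (SE, 95% confidence interval -0.37 to -0.10), and it did not pass (limma adjusted p = 0.28, with 0.0114% of probe sets called). Its sign was negative in every alternative run, from -0.27 to -0.21 on leaving out each array. The genotype estimates were of one sign in undisturbed and in sleep-deprived mice, and none passed with all 19 arrays in the fit.

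**Figure D2:**
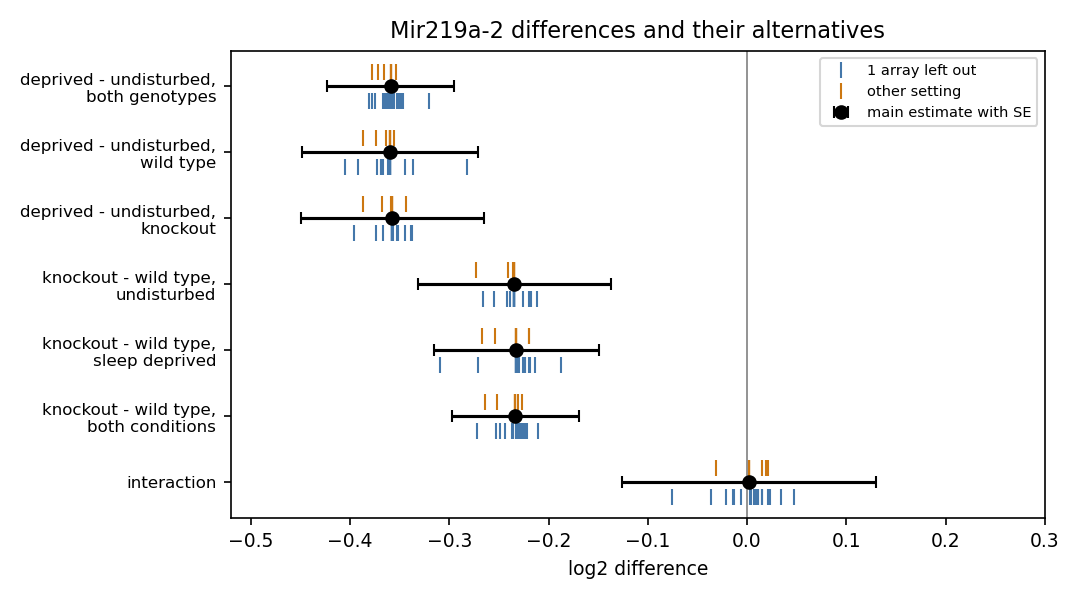
Log2 differences of Mir219a-2 in 7 comparisons, with the estimate from all 19 arrays ± SE (black), the estimates on leaving out each array in turn (blue) and those under other settings (orange). The sleep deprivation differences lie near -0.36, the genotype differences near -0.23 and the interaction near 0, on both sides of it.

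Among the other microRNA precursors, 42 genes, none passed for sleep deprivation averaged over genotypes, in limma. With 0.263% of all probe sets called there, this says little about so few genes. The median difference of the 43 precursors was 0.03, beside 0.02 over all probe sets. Negative differences were seen in 14 of the 43, Mir219a-2 included, and in 41.9% of all probe sets. The lowest of the others were Mir138-2 (-0.25, limma adjusted p = 0.32), Mir376a (-0.15, adjusted p = 0.69) and Mir425 (-0.12, adjusted p = 0.54). The highest were Mir299a (0.17, adjusted p = 0.62), Mir703 (0.16, adjusted p = 0.71) and Mir3473c (0.15, adjusted p = 0.77). Negative values in both the averaged sleep deprivation and the averaged genotype comparison were seen in 7 of the other 42 precursors and in 20.2% of all probe sets.

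**Figure D3:**
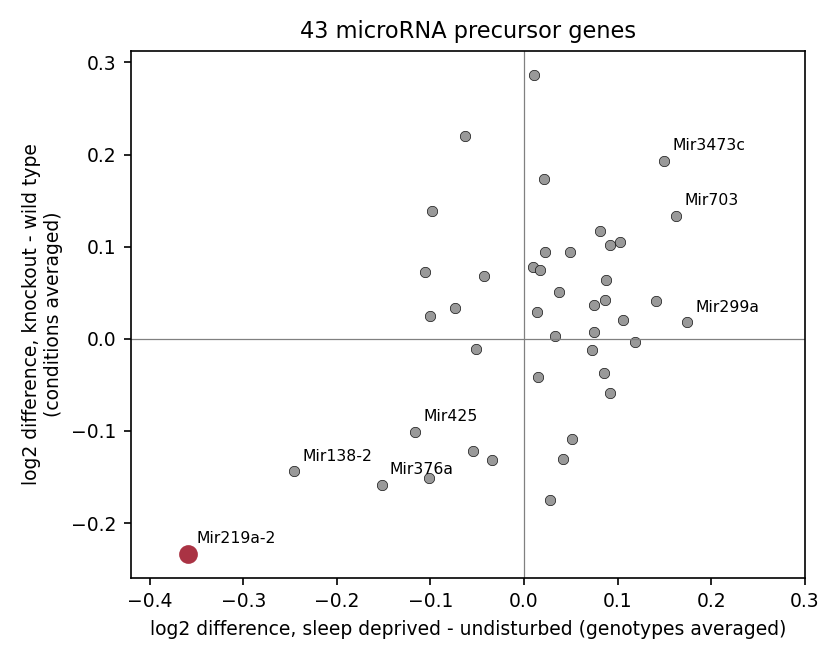
Each point is 1 of 43 microRNA precursor genes, placed by its log2 difference after sleep deprivation averaged over genotypes (horizontal) and by its knockout minus wild-type log2 difference averaged over conditions (vertical). Mir219a-2 (red, -0.36 and -0.23) lies at the lower left corner, with Mir138-2 (-0.25 and -0.14) nearest to it along the horizontal axis.

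Of 12 other precursors linked to oligodendrocytes, 1 was measured under a symbol of its own and 2 were listed only among several symbols. The 1 was Mir138-2, a precursor of miR-138, which has been tied both to oligodendrocyte differentiation and to dendritic spines. Its level was 9.19 ± 0.09 (SD, n = 4) in undisturbed and 9.01 ± 0.19 (SD, n = 6) in sleep-deprived wild type, and 9.11 ± 0.16 (SD, n = 4) and 8.80 ± 0.20 (SD, n = 5) in the knockout. The undisturbed and sleep-deprived arrays overlapped in both genotypes, and neither its averaged sleep deprivation difference nor its averaged genotype difference of -0.14 (limma adjusted p = 0.62) passed.

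Of 14 neuronal microRNA genes, 3 were measured under a symbol of their own and 2 were listed only among several symbols. None of the 3 passed for averaged sleep deprivation, averaged genotype or the interaction. As limma called 0.263%, 0.0114% and 0.0686% of all probe sets there, this says nothing about these genes. Mir124-2hg, the host transcript of a precursor of the neuronal miR-124, was at 8.31 ± 0.12 (SD, n = 4) in undisturbed and 8.08 ± 0.11 (SD, n = 6) in sleep-deprived wild type, and at 8.26 ± 0.12 (SD, n = 4) and 8.0 ± 0.15 (SD, n = 5) in the knockout. Undisturbed and sleep-deprived arrays overlapped in wild type and just met, at 8.14, in the knockout. Its averaged sleep deprivation difference was -0.24 ± 0.06 (SE, limma adjusted p = 0.13), and its averaged genotype difference was -0.06 (limma adjusted p = 0.84). Mir9-1 and Mir9-2, precursors of miR-9, which acts in neural progenitors, had averaged sleep deprivation differences of 0.02 and 0.01 (limma adjusted p = 0.98 and 0.99). Both signs turned under quantile normalization, and that of Mir9-2 also under median centring.

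Genes that miR-219 is known to hold down were looked at next. Of 10 such genes 2 were measured, and 0 of the 2 passed in any direction for averaged sleep deprivation, averaged genotype or the interaction. Limma called 0.263%, 0.0114% and 0.0686% of all probe sets in these comparisons, so a count over 2 genes says nothing about the targets. Their median averaged sleep deprivation difference was 0.03, beside 0.02 over all probe sets. Hes5, a Notch effector that represses differentiation, was at 7.16 ± 0.24 (SD, n = 4) in undisturbed and 7.28 ± 0.12 (SD, n = 6) in sleep-deprived wild type, and at 7.44 ± 0.22 (SD, n = 4) and 7.47 ± 0.21 (SD, n = 5) in the knockout. Its averaged sleep deprivation difference was 0.08 ± 0.09 (SE, limma adjusted p = 0.90, 95% confidence interval -0.11 to 0.26). Its averaged genotype difference was 0.24 ± 0.09 (SE, limma adjusted p = 0.43, 95% confidence interval 0.06 to 0.42), with overlapping groups. Hes5 thus had the opposite sign to Mir219a-2 in both comparisons. Neurod1, the other target measured, had the same sign as Mir219a-2 in the averaged genotype difference. The sleep deprivation difference of Neurod1 had no settled sign, at 0.06 in wild type and -0.10 in the knockout. None of these Hes5 and Neurod1 differences passed.

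Neurod1, a transcription factor of neuronal differentiation, was at 6.28 ± 0.10 (SD, n = 4) and 6.34 ± 0.08 (SD, n = 6) in undisturbed and sleep-deprived wild type, and at 6.22 ± 0.23 (SD, n = 4) and 6.12 ± 0.24 (SD, n = 5) in the knockout. Its averaged sleep deprivation difference was -0.02 ± 0.08 (SE, limma adjusted p = 0.98) and its averaged genotype difference -0.14 ± 0.08 (SE, limma adjusted p = 0.64). The groups overlapped, and the knockout arrays had the wider spread.

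**Figure D4:**
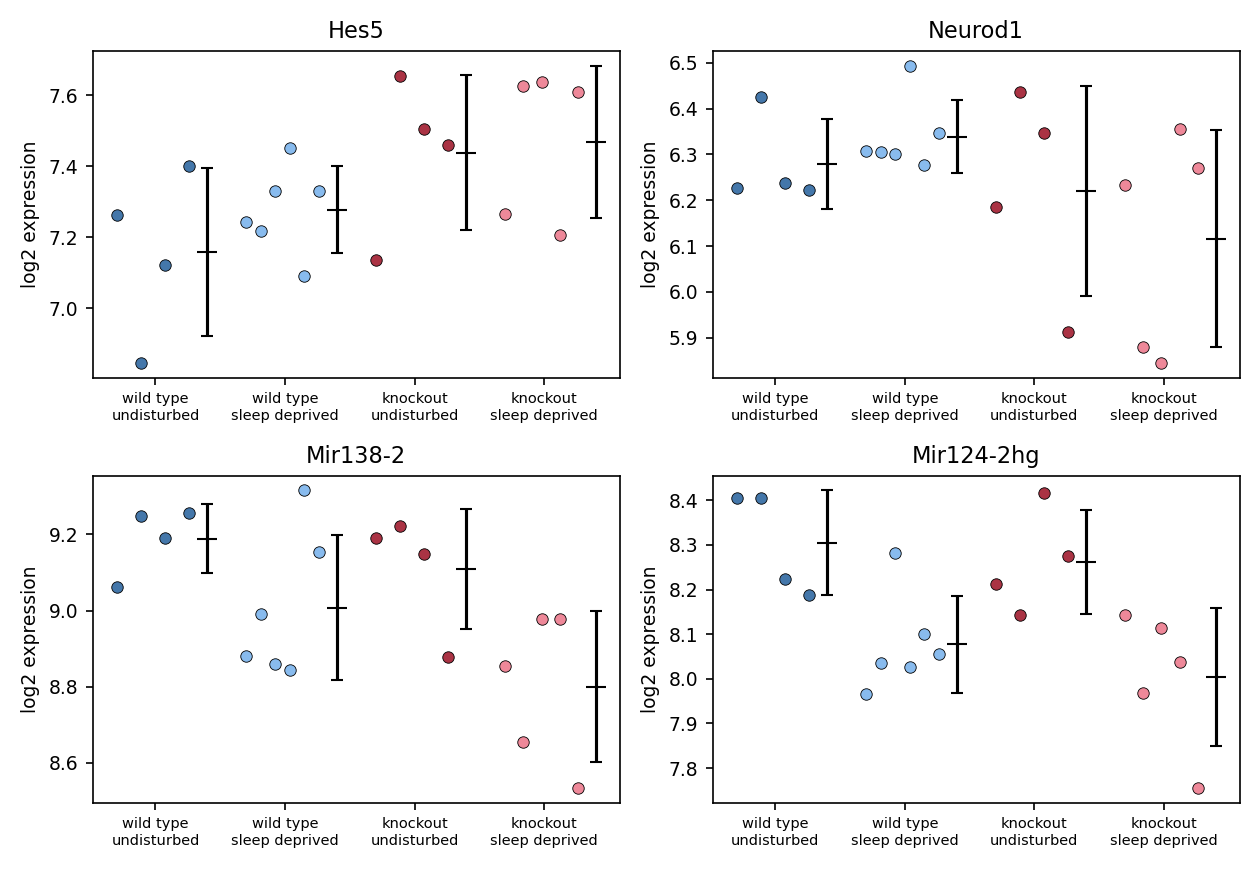
Log2 expression by array and group of the measured miR-219 target genes Hes5 and Neurod1 (top) and of Mir138-2 and Mir124-2hg (bottom), with mean ± SD. Each panel has its own vertical scale, and the ranges of undisturbed and sleep-deprived arrays overlap in each genotype, by the narrowest margin for Mir124-2hg in the knockout (8.14).

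Under a symbol of its own, no gene was measured of 12 in microRNA processing (such as Drosha and Dicer1) and of 17 of the circadian clock and of CREB signalling (such as Clock and Per2), pathways to which miR-219 has been linked, so they could not be described. By RefSeq, 69 other genes lie within 1 Mb of Mir219a-2. Of these, 3 were measured under a symbol of their own and 2 were listed only among several symbols. Crat, a carnitine acetyltransferase, had an averaged sleep deprivation difference of 0.07 (limma adjusted p = 0.82), Med27, a subunit of the Mediator complex, 0.01 (adjusted p = 0.99) and Nup188, a nucleoporin, -0.02 (adjusted p = 0.96). Their averaged genotype differences were -0.07, 0.02 and 0.07 (limma adjusted p = 0.77, 0.94 and 0.80). No measured neighbour passed in either comparison. Limma called 0.263% of all probe sets for averaged sleep deprivation and 0.0114% for averaged genotype, so this says nothing about the neighbours.

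Genes whose values were most like those of Mir219a-2 were ranked among the other 1120 genes of 1 symbol by Pearson correlation over the 19 arrays, as a description. Over the values as deposited, which carry the group differences, Pms2, a DNA mismatch repair gene, was highest (r = 0.81), followed by Ggact (0.67), Manbal (0.66), Mir124-2hg (0.65) and Mir425 (0.64). Fkbp5, a glucocorticoid-induced co-chaperone whose averaged sleep deprivation difference was 0.42 ± 0.07 (SE, limma adjusted p = 0.0065), was lowest (r = -0.79), followed by Gm5329 (-0.68), Gm6272 (-0.68), Serpina1a (-0.67) and Fmn1 (-0.65). The 5th and 95th percentiles over genes were -0.47 and 0.42. Pms2 had an averaged sleep deprivation difference of -0.17 ± 0.05 (SE, limma adjusted p = 0.20) and an averaged genotype difference of -0.04 (limma adjusted p = 0.85), neither of which passed.

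The same ranking on deviations from group means, which leaves the group differences out, named other genes, with Pms2 in both lists. Abat, the enzyme that breaks down the transmitter GABA, was highest (r = 0.88), followed by Gm17227 (0.66), Dcaf7 (0.64), Mir130a (0.64) and Pms2 (0.61). The lowest were Vmn2r122 (-0.71), Olfr20 (-0.65), Papolg (-0.65), Shroom1 (-0.62) and Sp100 (-0.60), and the 5th and 95th percentiles were -0.45 and 0.42. Much of this rested on wild-type sleep-deprived replicate 2. Without it, on 18 arrays, Abat stayed at 0.81, Dcaf7 at 0.67, Vmn2r122 at -0.56, Mir130a at 0.48 and Shroom1 at -0.45, whereas Gm17227 and Pms2 went to 0.24, Olfr20 to -0.25, and Papolg and Sp100 to -0.15. For Dcaf7 the array that mattered most was replicate 4 of that group, without which r was 0.49. The points of each correlation share the array they were read on. Several of these genes read low, with all group means below the lowest array median of 5.90. These were Vmn2r122 (4.21 to 4.32), Olfr20 (3.79 to 3.99), Gm17227 (4.97 to 5.10) and Mir130a (4.23 to 4.46). Vmn2r122 and Sp100 each had 2 probe sets, and only the brighter was ranked.

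Abat on wild-type sleep-deprived replicate 2 read 7.44, the lowest of the 19 arrays, and on replicate 4 of the same group 7.92, where Mir219a-2 was also the highest of its group. Within groups the correlation of Abat with Mir219a-2 was 0.88 in undisturbed wild type (n = 4), 0.95 in sleep-deprived wild type (n = 6), 0.28 in undisturbed knockout (n = 4) and 0.70 in sleep-deprived knockout (n = 5). The group means of Abat followed another order, with sleep deprivation differences of -0.13 in wild type and of 0.11 in knockout mice, and an averaged one of -0.01 ± 0.06 (SE, limma adjusted p = 0.99). The likeness of Abat to Mir219a-2 was one of deviations within groups, and over the values as deposited r was 0.47. Abat was picked as the highest of 1120 genes on these same deviations, so its correlations within groups are no separate support.

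**Figure D5:**
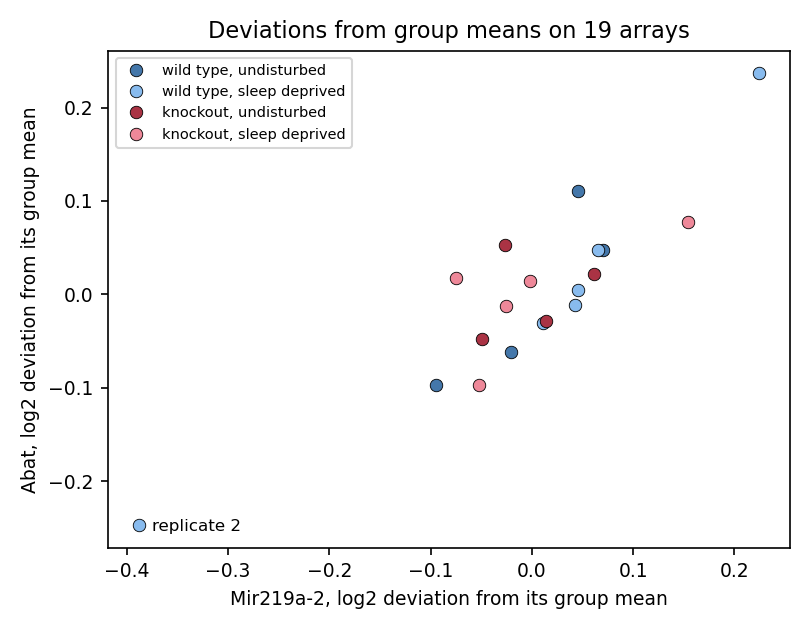
Deviation of Abat (vertical) against that of Mir219a-2 (horizontal) from the mean of the group, on the log2 scale, for each of 19 arrays. The points follow a rising line (r = 0.88), with wild-type sleep-deprived replicate 2 at the lower left end, and r is 0.81 without that array.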

How the data were processed

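Forebrain total RNA was extracted with a lipid tissue kit and labelled with biotin, per the labels' protocols. The authors' deposited table gives log2 expression, 1 value per probe set and array. The submitters' processing notes name RMA, oligo and limma, without versions. The order of these steps and the genome build: not given in the sources used here. The series' own text warns of incomplete tables, so a gene not measured here may be on the array.

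Of 8751 probe sets, 1308 carried 1 symbol (1121 genes), 1178 several and 6265 none. For genes with several probe sets the brightest was used. Group means were fitted on all 19 arrays with limma 3.58.1 in R 4.3.3, without covariates, and p-values were adjusted by Benjamini-Hochberg over all probe sets with a threshold of 0.05. The fit was tested on simulated data. Precision is limited by how many arrays each group has.

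The gene and the gene lists were chosen with earlier results of these data known. Named genes were the listed genes, neighbours within 1 Mb, the 3 lowest and 3 highest other precursors, and the 5 most and least correlated genes. Alternatives covered normalization, variance model, array weights, rows and arrays fitted, a block on replicate number, and leaving out each array. Sequences are RefSeq's. Plots used matplotlib 3.10.9.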

Additional observations from a re-analysis of the deposited data

Results flagged for a closer look

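Values that lay far from the rest of their group, by Dixon's test at the 95% level, were found in 4 of 40 groups of 10 genes, where chance gives about 1 in 20. Mir219a-2 read 7.21 on wild-type sleep-deprived replicate 2, against 7.61 on the next array. Neurod1 read 6.43 on wild-type undisturbed replicate 2, against 6.24, and 6.49 on wild-type sleep-deprived replicate 4, against 6.35. Mir9-1 read 5.28 on wild-type sleep-deprived replicate 3, against 5.59. The 4 values came from 4 different arrays.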

How the results depend on the processing

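The sleep deprivation differences of Mir219a-2 kept their sign and moved by less than the residual SD of 0.13 under all alternatives run. That bound is wider than their SE (0.06 averaged, 0.09 in each genotype). Settings of the prior variance and of the rows fitted cannot move an estimate. Leaving out an array of 1 genotype cannot move the difference within the other. On leaving out single arrays the sleep deprivation differences ran from -0.38 to -0.32 averaged over genotypes, -0.40 to -0.28 in wild type and -0.40 to -0.34 in the knockout. The genotype differences ran from -0.27 to -0.21 undisturbed, -0.31 to -0.19 sleep deprived and -0.27 to -0.21 averaged. None passed in limma except the sleep-deprived one without WT_sleep_deprived replicate 2 (-0.31), an array whose removal, chosen after seeing the data, fixes the separation of the groups, so an exact permutation test without it shows nothing and its p is not given. The exact permutation test of the undisturbed difference (-0.23) gave p = 0.0286, and 0.0571 when adjusted over both genotype comparisons. The interaction ran from -0.075 to 0.047 on leaving out single arrays and was -0.031 with quantile normalization. Signs near 0 also turned, with the cause not tested. With quantile normalization the sleep deprivation difference was -0.0059 for Mir9-1, -0.010 for Mir9-2 and -0.0059 for Med27, and the genotype difference of Med27 was -0.012. With median centring the sleep deprivation difference was -0.0054 for Mir9-2 and -0.0096 for Med27, and the genotype difference -0.00077 for Mir9-2 and -0.0086 for Med27. On leaving out single arrays the sleep deprivation difference ran from -0.073 to 0.014 for Neurod1, -0.024 to 0.054 for Mir9-1, -0.040 to 0.076 for Mir9-2, -0.018 to 0.026 for Med27 and -0.043 to 0.015 for Nup188, and the genotype difference of Mir9-2 from -0.020 to 0.092.

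The labels do not say what the replicate number stands for. Correlations of deviations between same-numbered arrays ran from -0.22 to 0.08, and whether such arrays shared a batch was not tested. With the replicate block, Mir219a-2 differed by -0.37 averaged over genotypes, -0.37 in wild type and -0.36 in the knockout after sleep deprivation, and by -0.23 between genotypes averaged, with an interaction of 0.02, and Nup188 by 0.0026 after sleep deprivation. The block moved the count of probe sets called from 23 to 9 for sleep deprivation averaged, from 147 to 70 for genotype after sleep deprivation and from 1 to 2 for genotype averaged. Med27 was left out by the filter on dim probe sets, which therefore gives it no value. Over all alternatives these counts ran from 8 to 39, from 28 to 298 and from 0 to 3, and that of the interaction from 0 to 41 (6 with all arrays).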
